A study of Mus musculus with 8 samples.

Results

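The proteasome genes were taken as every gene whose symbol starts with Psma, Psmb, Psmc, Psmd or Psme among the probe sets annotated to 1 symbol, which gave 43 of the 12393 genes on the arrays. Of these, 4 were immune subunits (Psmb8, Psmb9, Psmb10 and Psme1) and 36 were constitutive subunits, chaperones and activators. The remaining 3 were Psma8, a testis subunit under the detection floor on all 8 arrays, and Psmc3ip and Psme3ip1, which are named after proteasome genes but are no subunits. Psme2, the partner of Psme1, has no value here because its probe set is annotated to several symbols. RNA came from cultured connective tissue cells of mouse embryos (embryonic fibroblasts) of strain C57BL/6 x 129Ola. Their genotype was wild type (WT), Ikbke-/- (Tbk1+/+), Tbk1-/- (Ikbke+/+) or Tbk1-/- Ikbke-/-. Each genotype was sampled 4 h after mock transfection and 4 h after transfection with B-DNA, a synthetic double-stranded DNA of alternating A and T, with 1 array for each of the 8 combinations. Whether cells of several embryos were pooled is not given in the sources used here.

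The proteasome degrades ubiquitin-tagged proteins in a barrel whose inner beta rings carry the proteolytic sites, while the outer alpha rings gate the entry. A regulatory particle of ATPases and a lid docks on the barrel, unfolds the substrate and removes its ubiquitin. In cells that respond to interferon, the inducible subunits encoded by Psmb8, Psmb9 and Psmb10 replace the constitutive catalytic subunits Psmb5, Psmb6 and Psmb7 in newly built particles, and the activator PA28, made of Psme1 and Psme2, caps the barrel. This immunoproteasome supplies peptides for display on major histocompatibility complex (MHC) class I molecules. Tbk1 and Ikbke are related kinases that switch on interferon genes when foreign nucleic acid is sensed.

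Promoter sequences are shown for the immune subunits Psmb9, Psmb8 and Psme1 and for Psmb5, the constitutive gene that Psmb8 replaces. That of Psmb10 is not shown. They are RefSeq sequences on GRCm38.p6, read 5′ to 3′ along the gene, and capitals mark a match to a searched motif. Psmb9 and Psmb8 lie in the MHC region of chromosome 17, in the order H2-DMb1, Psmb9, Tap1, Psmb8, Tap2, H2-Ob. Psmb9 and Tap1 are transcribed away from each other, and the 225 bases shown for Psmb9 are the whole stretch between their start sites. For Psmb8 and Psmb5 the 250 bases before the start are shown, and for Psme1 the 30 bases around its match just inside the transcript.
Psmb9 (chr17:34187331-34187555, minus strand): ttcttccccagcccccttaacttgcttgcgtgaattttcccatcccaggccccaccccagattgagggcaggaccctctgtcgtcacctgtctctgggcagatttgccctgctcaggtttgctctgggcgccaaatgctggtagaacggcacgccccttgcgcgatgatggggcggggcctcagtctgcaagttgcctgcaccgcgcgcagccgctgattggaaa
Psmb8 (chr17:34197945-34198194, plus strand): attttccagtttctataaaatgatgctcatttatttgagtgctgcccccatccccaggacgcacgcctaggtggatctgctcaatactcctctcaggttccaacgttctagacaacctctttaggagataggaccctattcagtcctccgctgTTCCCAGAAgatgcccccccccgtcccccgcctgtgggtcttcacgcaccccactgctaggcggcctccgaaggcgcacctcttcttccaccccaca
Psme1 (chr14:55578493-55578522, plus strand): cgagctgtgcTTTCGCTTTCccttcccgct
Psmb5 (chr14:54617996-54618245, minus strand): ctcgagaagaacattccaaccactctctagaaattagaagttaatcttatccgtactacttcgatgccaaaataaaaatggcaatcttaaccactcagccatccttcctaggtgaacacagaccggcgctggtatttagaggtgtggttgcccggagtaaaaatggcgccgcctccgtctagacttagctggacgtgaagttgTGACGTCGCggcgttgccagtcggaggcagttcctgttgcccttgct

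Motif cores were searched on both strands in windows from 250 bases before to 50 bases after each start. They were GAAA, any 2 bases and GAAA for the interferon-stimulated response element, TTCNNNGAA for Stat sites and TGACNNNGC for the antioxidant response element. A window was listed for 36 of the 43 genes, 4 of them immune and 30 constitutive. The interferon core matched in 1 of 4 immune windows, that of Psme1 at bases 10 to 19 of the transcript, in 3 of 30 constitutive ones (Psmd4, Psmd9 and Psmb3), and in 3.44% of all 32851 windows. The Stat core matched in 1 of 4 immune windows, that of Psmb8 from -97 to -89, in 1 of 30 constitutive ones (Psmd2), and in 8.3% of all windows. The antioxidant core matched in 0 of 4 immune windows and in 6 of 30 constitutive ones, among them Psmb5 from -47 to -39, against 12.4% of all windows. These are matches of letters only, and they were not tested as binding sites. The stretch between Psmb9 and Tap1 held none of the 3 cores as written.

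Signals below are intensities scaled to a common level on every array. Values under a floor of 122 are described as not measured, and they entered ratios, fits and correlations set to that floor. Scaling factors lay between 1.96 and 3.58. All 12 fibroblast markers reached 244, which is 2 times the floor, on 6 arrays and 10 of them did so on both Tbk1-/- arrays. Of 18 macrophage and leukocyte markers, 15 reached it on the WT mock array, 12 on the WT B-DNA array and 1 or 2 on the other 6 arrays. Their summed signal was 22154 and 6200 on the WT mock and B-DNA arrays, against 1491 to 1904 on the others. Xist was at 2950 to 3766 on the WT and Tbk1-/- arrays and at 138 to 209 on the Ikbke-/- and Tbk1-/- Ikbke-/- arrays, so sex and the Ikbke genotype cannot be told apart. Tbk1 signal was 472 to 989 on the Tbk1+/+ arrays and 226 to 390 on the Tbk1-/- arrays, and Ikbke was under the floor on all 8, so it checks nothing. In RNA from whole cultures, fewer cells of a type and less RNA per cell cannot be told apart.

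Psmb8, Psmb10 and Psme1 rose with B-DNA in the Tbk1+/+ cells, Psmb9 was above the floor only there, and the barrel and regulatory subunits around them showed no called change. Psmb8, the inducible chymotrypsin-like subunit, went from 175 to 1892 in WT and from 348 to 3537 in Ikbke-/- cells. It was 173 and 186 on the Tbk1-/- mock and B-DNA arrays, and 113 and 13.2, both under the floor, on the Tbk1-/- Ikbke-/- arrays. The 2 B-DNA arrays with intact Tbk1 thus stood far above the other 6, which overlapped between mock and B-DNA. The log2 ratio of B-DNA over mock was 3.43 in WT, 3.34 in Ikbke-/- and 0.10 in Tbk1-/- cells.

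Psmb9, which replaces the caspase-like subunit, was at 45.0 and 1031 in WT and at 122 and 2248 in Ikbke-/- cells for mock and B-DNA. It was at 70.2 and 87.3 in Tbk1-/- and at 100.1 and 61.2 in Tbk1-/- Ikbke-/- cells. It was measured above the floor on only the 2 B-DNA arrays with Tbk1, and the Ikbke-/- mock value lay just under the floor. Its log2 ratios were therefore at least 3.08 in WT and at least 4.20 in Ikbke-/- cells, and no ratio can be given for the other genotypes.

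Psmb10, which replaces the trypsin-like subunit, was above the floor on all 8 arrays. It went from 558 to 3724 in WT and from 631 to 3222 in Ikbke-/- cells. In Tbk1-/- cells it was 457 and 428, and in Tbk1-/- Ikbke-/- cells 668 and 660.2. The pairs without Tbk1 differed by -0.10 and -0.02 on the log2 scale, against 2.74 in WT and 2.35 in Ikbke-/- cells. Psme1, the alpha chain of PA28, was already well measured in mock cells. It went from 1021 to 3243 in WT and from 1644 to 4890 in Ikbke-/- cells, log2 ratios of 1.67 and 1.57. It was 1020.2 and 1175 in Tbk1-/- and 1824 and 1866 in Tbk1-/- Ikbke-/- cells, log2 ratios of 0.20 and 0.03. The highest of the other 6 arrays, 1866, lay below the lower of the 2 B-DNA arrays with Tbk1, 3243.

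**Figure D1:**
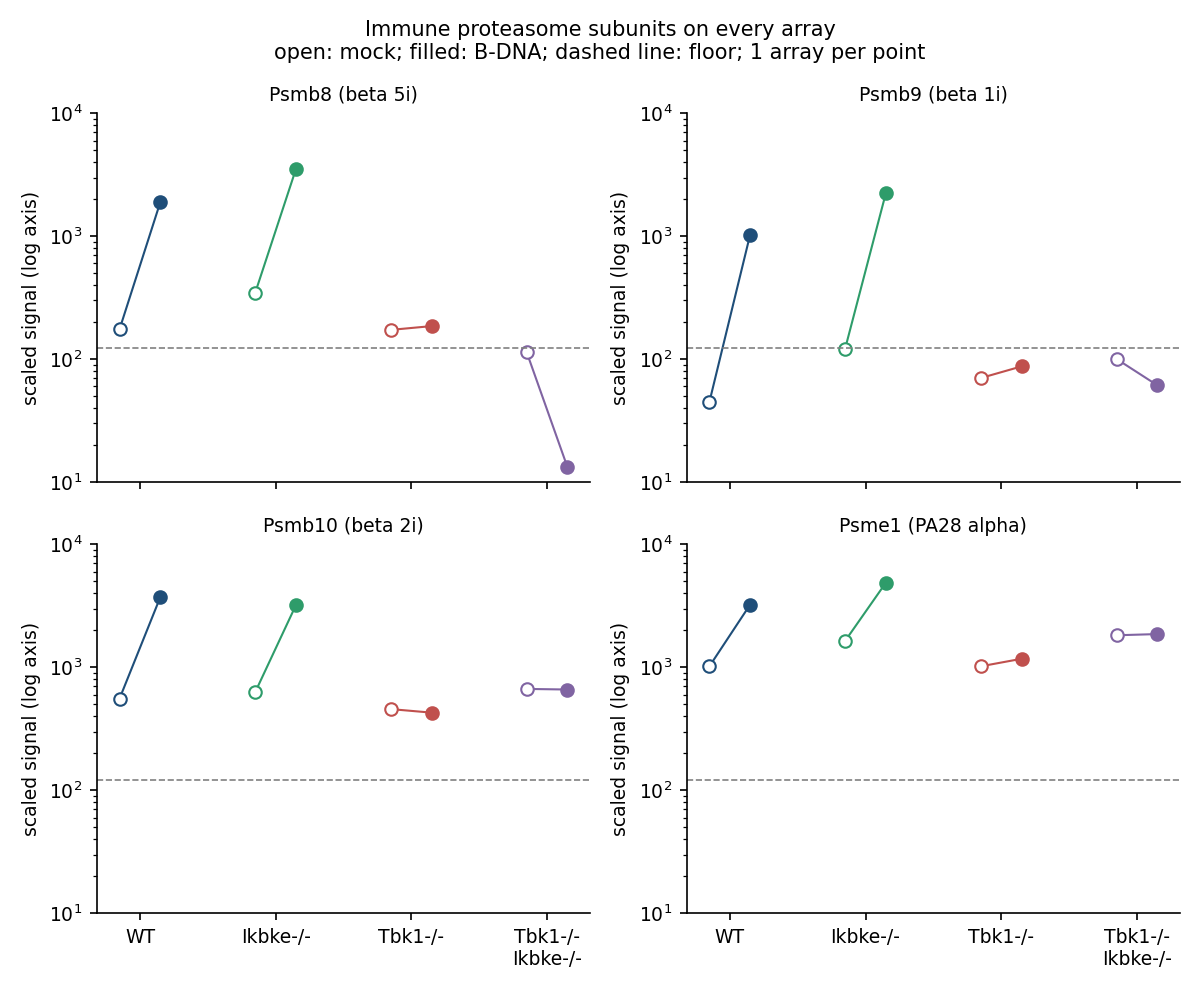
Scaled signal on a log axis of Psmb8, Psmb9, Psmb10 and Psme1 on every array, with open points for mock, filled points for B-DNA, a line joining the 2 arrays of a genotype and a dashed line at the floor of 122. The lines climb in WT and Ikbke-/- cells, while Psmb10 and Psme1 stay nearly level in both genotypes without Tbk1, and the falling Psmb8 line of Tbk1-/- Ikbke-/- cells joins values under the floor that have no order.

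The WT and Ikbke-/- pairs were taken as 2 replicates of the response with Tbk1, although they differ in Ikbke genotype and Xist signal. Of the 42 tested proteasome genes, 4 were called higher and 0 lower (limma, Benjamini-Hochberg over 9626 genes). Of all genes tested, 2.32% rose and 0.488% fell. The mean log2 change was 3.39 ± 0.12 (SE) for Psmb8 (adjusted p = 0.0019), 2.55 ± 0.14 for Psmb10 (adjusted p = 0.0050) and 1.62 ± 0.12 for Psme1 (adjusted p = 0.0085). The fourth call, Psmb9, supports nothing, because this gene passed the filter only through the 2 arrays where it is high and its other 6 values were set to the floor. With any 1 of the 4 genotype pairs left out, the changes lay between 1.57 and 4.20. A Tbk1 group then held 1 pair, so calls from such fits say nothing about these genes in particular. Without the filter on low genes 1 of 4, Psmb8, was called, as were 10 of all 12393 genes. The macrophage markers were lower on the WT B-DNA than on the WT mock array. They stood at 1 of 18 on both Ikbke-/- arrays. The ratios of Psmb8, Psmb10 and Psme1 were 3.34, 2.35 and 1.57 in Ikbke-/- cells, against 3.43, 2.74 and 1.67 in WT. The part of macrophages in these ratios was not tested, since WT and Ikbke-/- cells also differ in Ikbke genotype and Xist signal. In the pairs without Tbk1, limma called 0 of 42 proteasome genes and 0% of all genes tested. At an unadjusted p under 0.05 there was 1 of 42 (Psme3) and 628 of 9626. The change in these pairs was 0.05 ± 0.12 (SE) for Psmb8, -0.06 ± 0.14 for Psmb10 and 0.12 ± 0.12 for Psme1, and that of Psmb8 was -0.65 with an offset of 50 in place of the floor, since it rests partly on values under the floor.

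The dependence on Tbk1 was the change in the Tbk1-/- pairs minus that in the Tbk1+/+ pairs. The 4 immune subunits were called lower and no other proteasome gene was called, while 1.83% of all genes tested had a smaller and 0.239% a larger change without Tbk1 (limma, Benjamini-Hochberg). The difference was -3.34 ± 0.23 (SE) for Psmb8 (adjusted p = 0.0014), -2.60 ± 0.25 for Psmb10 (adjusted p = 0.0053) and -1.50 ± 0.23 for Psme1 (adjusted p = 0.0313). For Psmb9, all values but 2 were set to the floor, so its call again supports nothing. With any 1 pair left out, the differences lay between -4.20 and -1.42, and calls from such fits again say nothing about these genes in particular. Leaving out the filter on low genes left 0 of 4 called, and 0 of all 12393 genes. Psme1 was called under 6 of 10 other settings, Psmb10 under 9 of 10 and Psmb8 under 8 of 9.

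For Ikbke, the same limma fit called 0 of 42 proteasome genes and 0% of all genes tested, with 3 of 42 and 435 of 9626 at an unadjusted p under 0.05. The change in the Ikbke-/- pairs minus that in the Ikbke+/+ pairs was -0.09 ± 0.23 (SE) for Psmb8, -0.15 ± 0.25 for Psmb10 and -0.13 ± 0.23 for Psme1. That of Psmb8 rests partly on values under the floor. For Psmb9 the value of 0.56 comes from lower bounds and values set to the floor, so it supports nothing. The 3 genes at an unadjusted p under 0.05 were Psma5 and the 2 genes that are no subunits, Psmc3ip and Psme3ip1, each with an adjusted p of 0.978. Psma5, an alpha ring subunit, went from 1900.0 to 3249 in Ikbke-/- cells and from 1647 to 2383 in Tbk1-/- Ikbke-/- cells. It was at 1965 and 2128 in WT and at 1475 and 1327 in Tbk1-/- cells. Both cell types without Ikbke thus had higher values with B-DNA, by 0.77 and 0.53 on the log2 scale, and a second Psma5 probe set gave 0.68 and 0.14.

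The constitutive catalytic subunits that the immune subunits displace had no called change. Psmb5, the chymotrypsin-like subunit, was 3421 and 3261 in WT, 3266 and 2723 in Ikbke-/-, 3411 and 3260 in Tbk1-/-, and 2340 and 2548 in Tbk1-/- Ikbke-/- cells for mock and B-DNA. The 4 mock values and the 4 B-DNA values overlapped. Psmb6, the caspase-like subunit, was 2410.1 and 2054 in WT, 2559 and 1808 in Ikbke-/-, 2194 and 2057 in Tbk1-/-, and 2621 and 2795 in Tbk1-/- Ikbke-/- cells. Its log2 change with Tbk1 was -0.37 ± 0.13 (SE, limma, adjusted p = 0.231). Psmb7, the trypsin-like subunit, was 6869 and 7066 in WT, 6665 and 5962 in Ikbke-/-, 7153 and 6544 in Tbk1-/-, and 5786 and 6531 in Tbk1-/- Ikbke-/- cells. It had log2 ratios from -0.16 to 0.17 across the 4 genotypes.

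The difference between the log2 ratio of an immune subunit and that of its counterpart gives the shift between the 2 messages within a pair of arrays. For Psmb8 against Psmb5 it was 3.50 in WT, 3.61 in Ikbke-/-, 0.17 in Tbk1-/- and -0.12 in Tbk1-/- Ikbke-/- cells, the last set by the floor. For Psmb9 against Psmb6 it was at least 3.31 in WT and at least 4.70 in Ikbke-/- cells. For Psmb10 against Psmb7 it was 2.70, 2.51, 0.03 and -0.19 in the same order of genotypes. In WT cells the 2 measured core pairs thus shifted 11.3-fold and 6.49-fold towards the immune form. These ratios concern messages at 4 h, and the subunits built into particles were not measured.

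The activators divided by type. Psme3 encodes PA28 gamma, a nuclear relative of Psme1 that is not part of the immunoproteasome. It was 690 and 581 in WT, 829 and 584 in Ikbke-/-, 909.8 and 1134 in Tbk1-/-, and 447 and 838 in Tbk1-/- Ikbke-/- cells, so B-DNA values were below mock with Tbk1 and above it without. Its dependence on Tbk1 was 0.99 ± 0.28 (SE, limma, adjusted p = 0.171). A second Psme3 probe set gave -0.43, -0.35, 0.25 and -0.04 in WT, Ikbke-/-, Tbk1-/- and Tbk1-/- Ikbke-/- cells, against -0.25, -0.50, 0.32 and 0.91 for the first, so the high value in cells without both kinases was not shared. Psme4, the PA200 activator, was 1440.2 and 1542 in WT, 1163 and 1100.0 in Ikbke-/-, 1412 and 1354 in Tbk1-/-, and 1496 and 1209.6 in Tbk1-/- Ikbke-/- cells, with log2 ratios from -0.31 to 0.10. Dimmer Psme4 probe sets gave -0.16 and -0.13 in WT, against 0.10. In Tbk1-/- Ikbke-/- cells they gave 0.43 and -0.38, against -0.31.

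**Figure D2:**
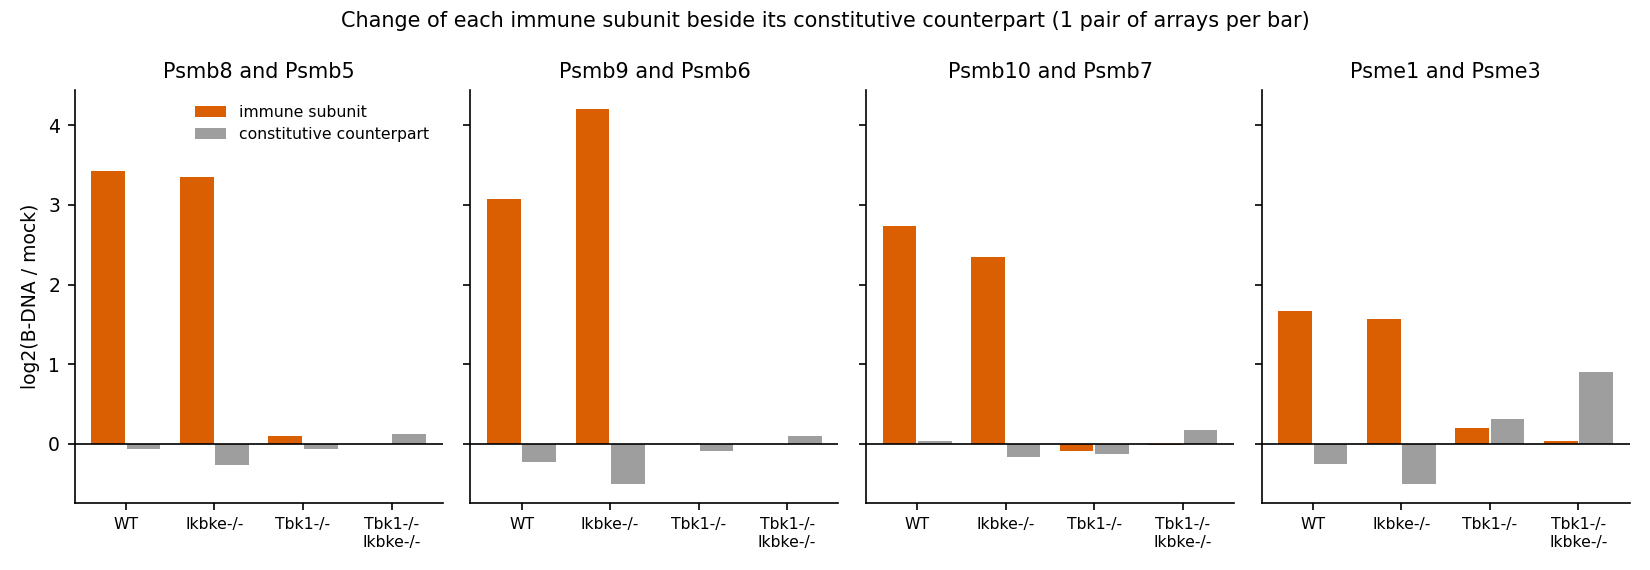
Log2 ratio of B-DNA over mock for each immune subunit (orange) and its constitutive relative (grey) in the 4 genotypes, 1 pair of arrays per bar, with no error bar because no pair has a replicate. Orange bars of 1.57 or more appear in WT and Ikbke-/- cells, those of Psmb9 being lower bounds, and the grey bars lie between -0.50 and 0.91. Bars at 0 for Psmb9 in both genotypes without Tbk1 and for Psmb8 in Tbk1-/- Ikbke-/- cells come from values under the floor.

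The 36 constitutive genes, all above the floor on all 8 arrays, had small ratios. In single pairs 0 of the 36 differed 2-fold in any genotype, while of all genes tested 3.27% were 2-fold higher and 1.89% lower in WT, 3.55% and 1.64% in Ikbke-/-, 0.291% and 0.405% in Tbk1-/-, and 0.54% and 0.748% in Tbk1-/- Ikbke-/- cells. All 4 immune subunits passed 2-fold in WT and in Ikbke-/- cells and 0 of them in the other genotypes. The median log2 ratio of the constitutive genes was -0.07 in WT (23 of 36 below 0), -0.27 in Ikbke-/- (29 of 36), -0.03 in Tbk1-/- (21 of 36) and 0.10 in Tbk1-/- Ikbke-/- cells (11 of 36), where the median of all genes tested was 0 in each. Their spread (SD across genes) was 0.24, 0.27, 0.15 and 0.26. With the values as deposited, the medians of the constitutive genes were -0.48, -0.50, -0.20 and 0.29, and those of all genes tested were -0.39, -0.23, -0.11 and 0.10. Relative to all genes the shift was then -0.09, -0.27, -0.10 and 0.19, with the sign it had after scaling in all 4 genotypes.

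In the limma fit of the Tbk1+/+ pairs, 27 of the 36 constitutive genes had a change below 0, with a median of -0.16 against -0.02 for all genes tested. None of the 36 was called and 7 had an unadjusted p under 0.05, all with lower values, a share no higher than the 2018 of 9626 genes tested. By description, Psmb1, a non-catalytic beta ring subunit, had the lowest value of the 36, -0.55 ± 0.12 (SE, adjusted p = 0.109). It was 3029 and 1931 in WT, 3002 and 2210.0 in Ikbke-/-, 2905 and 3079 in Tbk1-/-, and 3256 and 3594 in Tbk1-/- Ikbke-/- cells. Both B-DNA arrays with Tbk1 lay below the other 6 arrays. A dimmer Psmb1 probe set, at 176 to 346, gave log2 ratios of 0.24 and 0.34 in WT and Ikbke-/- cells, of the opposite sign. The others were Psmc5 (-0.51, adjusted p = 0.149), Psmd5 (-0.40, adjusted p = 0.155), Psmd12 (-0.39, adjusted p = 0.186), Psmb6 (-0.37), Psmd8 (-0.36) and Psmc2 (-0.32). A second, bright Psmc2 probe set gave a ratio of -0.02 for WT and of -0.20 for Ikbke-/- cells, while the first had -0.32 for each.

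The parts of the particle differed in where their genes lay. Of the 7 alpha ring genes, 6 were above 0 in the Tbk1+/+ fit (median 0.09), led by Psma5 at 0.44 and Psma4 at 0.28. Of the 7 constitutive beta ring genes, 6 were below 0 (median -0.16). The 6 ATPases of the base (Psmc1 to Psmc6), which unfold substrates, were all below 0 (median -0.26). In WT cells alone 2 of the 6 ATPase ratios were above 0, Psmc1 (0.03) and Psmc6 (0.01). In Ikbke-/- cells alone the ATPase ratios ran from -0.60 (Psmc5) to -0.32. A dimmer Psmc4 probe set gave -1.70 in WT, with its B-DNA value under the floor, and 0.81 in Ikbke-/- cells. The Psmc4 probe set used here gave -0.10 and -0.37. The 3 other base subunits, Psmd1, Psmd2 and the ubiquitin receptor Psmd4, were also below 0 in the Tbk1+/+ fit (median -0.18). The ratio of Psmd1 in WT alone was 0.12. Of the 8 lid genes, which include the deubiquitinating enzyme Psmd14, 7 were below 0 in that fit (median -0.17). The 3 chaperones that assemble the base, Psmd5, Psmd9 and Psmd10, were below 0 in WT and Ikbke-/- cells and above 0 in both genotypes without Tbk1. A dimmer Psmd9 probe set, at 109 to 186, had the opposite sign in WT (0.39), Tbk1-/- (-0.27) and Tbk1-/- Ikbke-/- cells (-0.06). In Ikbke-/- cells it was under the floor. Psmd10, whose probe set had the lowest mean of the 36, was 244 and 231 in WT, 191 and 141 in Ikbke-/-, 227 and 290.4 in Tbk1-/-, and 234 and 283 in Tbk1-/- Ikbke-/- cells. No difference between these parts was tested, and no gene in them was called.

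**Figure D3:**
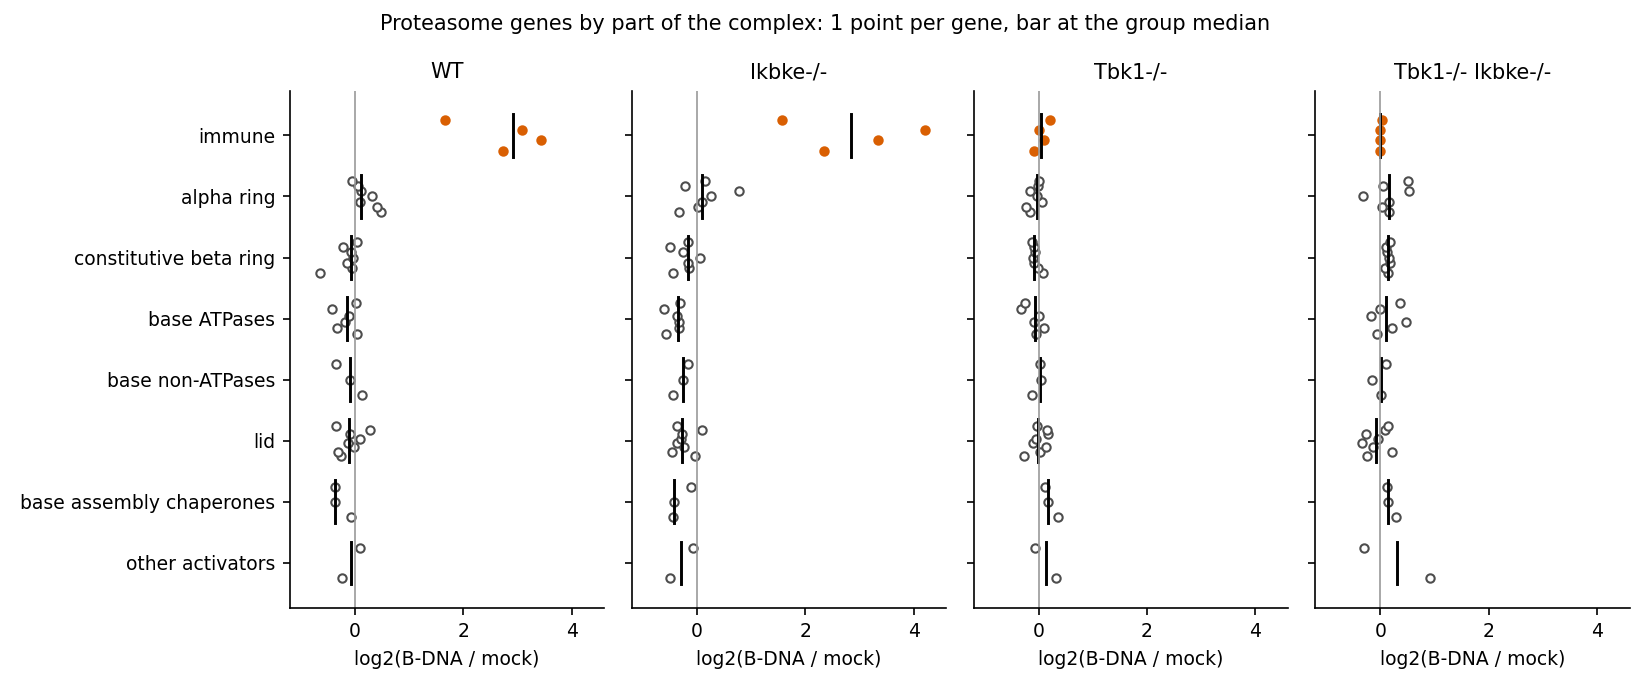
Log2 ratio of B-DNA over mock for 40 proteasome genes in each genotype, 1 point per gene by part of the complex, with a bar at the median of each part. Filled immune points lie at 1.57 to 4.20 in WT and Ikbke-/- cells and at -0.10 to 0.20 in the other genotypes, while open constitutive points stay between -0.65 and 0.91, and Psmb9 values are lower bounds or come from values under the floor.

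Across the 36 constitutive genes, the ratios in WT and in Ikbke-/- cells, which come from separate arrays, had a Pearson r of 0.45, and 26 genes had the same sign, 21 of them below 0 in both. The ratios in Tbk1-/- and Tbk1-/- Ikbke-/- cells had an r of 0.21 with 18 genes of the same sign. Both are descriptions across genes, which are not independent. Of 33 further probe sets of these genes 19 reached 244. In WT cells 2 of them differed 2-fold, 1 for Psmc4 (397 in mock, 103 with B-DNA) and 1 for Psmd4 (45.6 and 251), while the brighter probe sets of these genes gave -0.10 and -0.36 on the log2 scale. No further probe set differed 2-fold in the other genotypes.

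Levels before B-DNA are described from the 4 mock arrays. In a limma fit of these arrays, Tbk1-/- minus Tbk1+/+, 0 of 42 proteasome genes and 0% of all genes tested were called, and 0 of 42 and 230 of 9626 had an unadjusted p under 0.05. This fit also called no changed gene of any size on simulated data, so its 0 says nothing about stability. Against the WT mock array, the log2 ratio of the median constitutive gene depended on the scaling. It was 0.07 in Ikbke-/-, 0.03 in Tbk1-/- and -0.19 in Tbk1-/- Ikbke-/- cells, 0.21, 0.17 and -0.31 with scaling to a common median, 0.07, 0.14 and -0.95 as deposited (all genes tested -0.02, 0.03 and -0.56), and 0.04, -0.01 and -0.17 after quantile normalization. In Tbk1-/- Ikbke-/- cells it was below 0 in all 4, with 27 of 36 genes and all 8 lid genes lower in the first. The lid subunit Psmd8, at 4543 in WT, 3655 in Ikbke-/-, 4954 in Tbk1-/- and 2188 in Tbk1-/- Ikbke-/- mock cells, was the only proteasome gene past 2-fold (-1.05), where 5.51% of all genes tested were 2-fold lower and 5.56% higher. In Ikbke-/- and Tbk1-/- mock cells 0 proteasome genes passed 2-fold, where 2.31% and 2.23% of all genes tested were higher and 3.13% and 3.33% lower. The Tbk1-/- Ikbke-/- mock array needed the largest scaling factor, 3.58. Of the immune subunits, Psmb8 was 0.99 and Psme1 0.69 higher in Ikbke-/- than in WT mock cells (log2). Of the 18 macrophage markers 15 reached 244 in WT mock and 1 in Ikbke-/- mock cells, and their part in these levels was not tested. Psme1 was also 0.84 higher in Tbk1-/- Ikbke-/- mock cells.

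Genes that work with the proteasome mostly had no called change. Of 12 assembly and associated factors 10 were on the array. Where 2.32% of all genes tested rose with Tbk1, 1 of these 10 did. This was Ecpas, the adaptor also called Ecm29 that binds the assembled particle. It went from 294 to 817 in WT and from 399 to 909.5 in Ikbke-/- cells, and was 262 and 255 in Tbk1-/- and 360.1 and 385 in Tbk1-/- Ikbke-/- cells. The change with Tbk1 was 1.33 ± 0.13 (SE, limma, adjusted p = 0.0191), and the dependence on Tbk1, -1.30 ± 0.24, missed the threshold (adjusted p = 0.0602). Pomp, the chaperone that builds the beta ring and is needed for immunoproteasome assembly, went from 2595 to 3576 in WT and from 3286 to 3662 in Ikbke-/- cells, a log2 change of 0.31 that was not called (adjusted p = 0.305). Psmg2, an alpha ring chaperone, was 677 and 496 in WT, 859 and 285 in Ikbke-/-, 474 and 761 in Tbk1-/-, and 384 and 865 in Tbk1-/- Ikbke-/- cells. Its values thus went down in both pairs with Tbk1 and up in both without, and its dependence on Tbk1 of 1.95 ± 0.40 had an adjusted p of 0.0807 (limma).

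Of 12 regulators and shuttle factors 10 were on the array and none was called in either comparison, with 2 of 10 at an unadjusted p under 0.05 in the Tbk1+/+ pairs (2018 of 9626 genes tested) and 1 of 10 for the dependence on Tbk1 (1587 of 9626). Nfe2l1, the transcription factor that restores proteasome genes when proteasomes are inhibited, had a log2 change of 0.32 with Tbk1 (limma, adjusted p = 0.214). Of 10 ubiquitin and E1 genes 2 were on the array. Uba7, the activating enzyme for the ubiquitin-like interferon product Isg15, went from 105 to 725 in WT and from 168 to 786 in Ikbke-/- cells. It was under the floor on 3 of the 4 arrays without Tbk1, at 42.6, 29.9 and 109, and at 172 on the other. Its change with Tbk1 was 2.40 ± 0.18 (SE, limma, adjusted p = 0.0086) and its dependence on Tbk1 -2.64 ± 0.23 (adjusted p = 0.0038), and both depend on the floor. Uba3, which activates Nedd8, was not called.

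**Figure D4:**
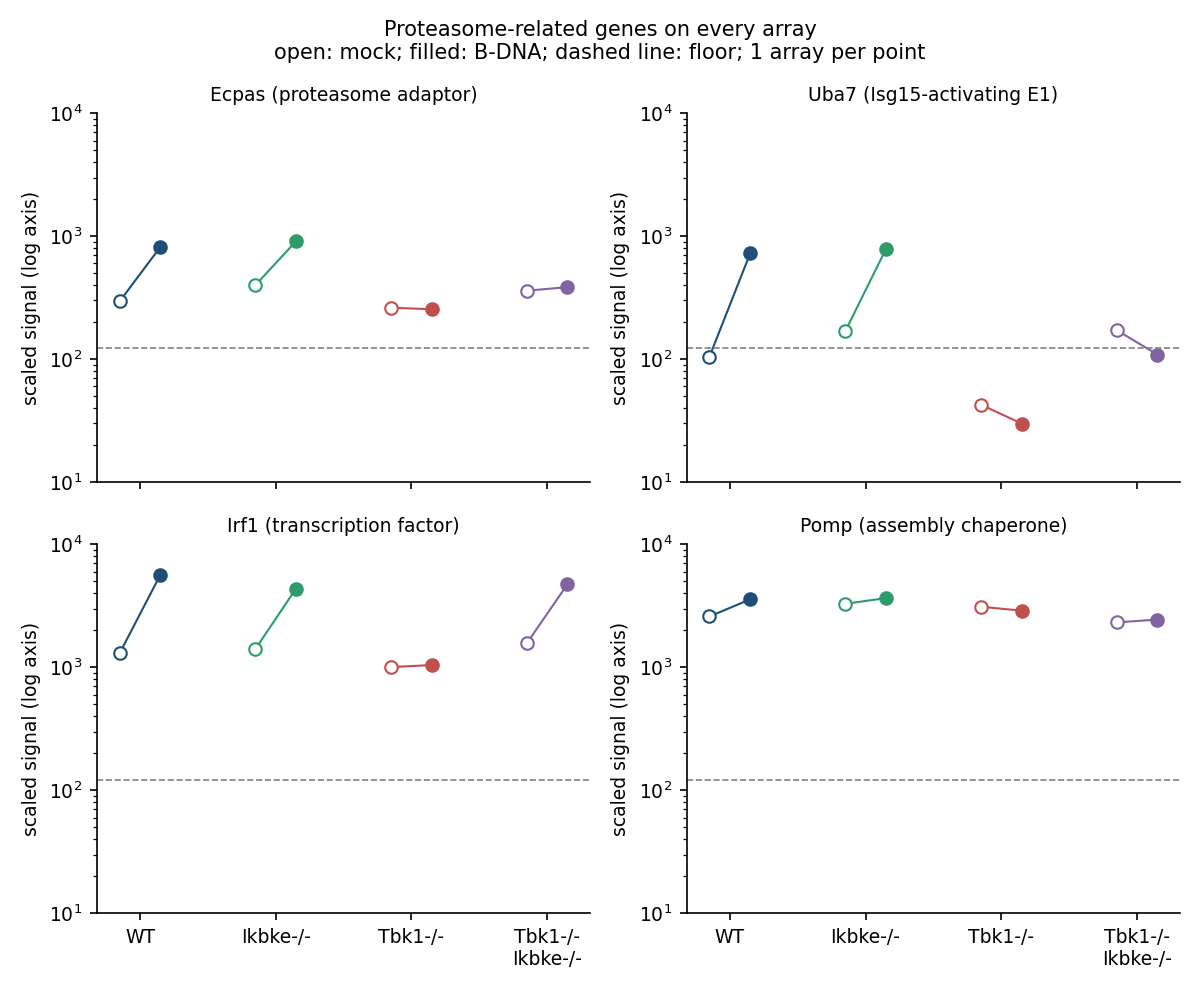
Scaled signal on a log axis of Ecpas, Uba7, Irf1 and Pomp on every array, with open points for mock, filled points for B-DNA and a dashed line at the floor of 122. Ecpas and Uba7 are higher with B-DNA in WT and Ikbke-/- cells, Irf1 also in Tbk1-/- Ikbke-/- cells (1569 and 4743), and Pomp lies between 2322 and 3662 on all 8 arrays.

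Several partners of the immunoproteasome in antigen display rose too. Of 14 genes of class I peptide supply, 5 rose with Tbk1 and 6 depended on it (limma, Benjamini-Hochberg). Of all genes tested, 2.32% rose with Tbk1 and 1.83% had a smaller change without it. The peptide transporter genes Tap1 and Tap2, which flank Psmb8, rose by 3.76 ± 0.18 (SE) and 2.25 ± 0.17 on the log2 scale. Tap1, which shares the printed stretch with Psmb9, was 364 and 4199 in WT, 356 and 5701 in Ikbke-/-, 255 and 288 in Tbk1-/-, and 420 and 368 in Tbk1-/- Ikbke-/- cells. Tapbp, the bridge between transporter and class I, rose by 1.77, and the class I heavy chains H2-D1 and H2-K1 by 1.96 and 1.18. Tapbpl, a peptide editor, had a Tbk1 dependence of -2.11 (adjusted p = 0.0405). It was under the floor on the Ikbke-/- mock array (106) and the Tbk1-/- B-DNA array (114), so this value depends on the floor. The trimming peptidases Erap1 (0.98, adjusted p = 0.0744) and Lap3 (0.82, adjusted p = 0.0964) and the light chain B2m (0.43, adjusted p = 0.145) were not called in the Tbk1+/+ pairs. The median over the 14 genes was 0.90, against -0.02 for all genes tested.

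Of 7 interferon transcription factors 5 were on the array, 3 of which rose with Tbk1 and depended on it. Of all genes tested, 2.32% rose with Tbk1 and 1.83% had a smaller change without it. The 3 factors were Stat2 (3.21), Irf2 (1.91) and Irf9 (1.76). Irf2 was under the floor on 5 of 8 arrays, so its value depends on the floor. Irf1, a factor known to drive immunoproteasome genes, was 1300 and 5653 in WT, 1406 and 4379 in Ikbke-/-, 1005 and 1044 in Tbk1-/-, and 1569 and 4743 in Tbk1-/- Ikbke-/- cells. Its change with Tbk1 was 1.88 ± 0.39 (SE, limma, adjusted p = 0.0996) and its dependence on Tbk1 -1.05 (adjusted p = 0.327). In Tbk1-/- Ikbke-/- cells Irf1 was 1.60 higher with B-DNA (log2) while Psmb10 and Psme1 differed by -0.02 and 0.03. No replicate of that pair was measured.

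Among all genes, the pattern most like Psmb8 over the 8 arrays (Pearson r of log2 values) was that of Rmdn3 at 0.9995, a gene for a mitochondrial outer membrane protein, followed by Gnb4 at 0.994, Trim21 at 0.989 and Aida at 0.987. Rmdn3 had smaller ratios than Psmb8, 1.53 in WT and 1.54 in Ikbke-/- cells. Psmb9 had an r of 0.967, Psmb10 of 0.929 and Psme1 of 0.851 with Psmb8, while the median of the 36 constitutive genes was -0.23 (from -0.92 to 0.84). For Psmb10 the most alike were Idnk at 0.993, Igtp and Ifit3 at 0.992 and Rnf114 at 0.991. These values rest on the 2 B-DNA arrays with Tbk1, which stand apart from the other 6.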

How the data were processed

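The deposited values are linear signal intensity for each probe set from 1-colour Affymetrix arrays, made by the authors with Microarray Suite 5.0 (MAS5) per the labels and the design text, which names another array type than the probe sets belong to. No source used here gives the scaling target or the detection calls. Of 22690 probe sets, 64 controls were left out, and 20380 were annotated with 1 symbol, 691 with several and 1555 with none. Of the single symbols, 20351 were found in the RefSeq table for GRCm38.p6. The proteasome genes and all gene lists were chosen with earlier results of these data known.

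Each array was scaled to a 2% trimmed mean of 500 (deposited trimmed means 140 to 255). Values under the 40th percentile, 122, were set to it before taking log2. Each gene was represented by its probe set of highest mean, and 9626 of 12393 genes were tested. A ratio within a pair counted as past 2-fold if its larger signal reached 244.

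The 2-sided tests were those of limma 3.58.1 (R 4.3.3, lmFit with eBayes) with genotype as a block, and a Benjamini-Hochberg adjusted p under 0.05 was a call. The Tbk1 and Ikbke fit had 1 residual and 5.34 prior degrees of freedom, and the fit within Tbk1 genotypes had 2 and 2.58. The fit of the 4 mock arrays had 1 and 0.892. No group has a replicate, and the labels do not name separate cultures or embryos. In the fit within Tbk1 genotypes the error is the disagreement of pairs that differ in Ikbke genotype and in Xist. In the other fits it is what the Tbk1 and Ikbke terms leave over. The p-values therefore reflect a mix of such differences with array-to-array spread, which may be technical. The number of arrays limits the precision. The fits were tested on simulated data with known changes put into each comparison. Most large and few small changes were recovered in each comparison of responses to B-DNA, and none in the fit of the mock arrays. The Tbk1 and Ikbke fit also called unchanged genes, 21 of 9426 for Tbk1 and 18 for Ikbke. For Tbk1 these stood beside 1, 4, 44 and 50 of 50 genes changed by 0.5, 1, 2 and 3 (log2). This is a larger share of the calls than the threshold of 0.05 allows, so adjusted p-values of that fit may be too low.

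Alternatives were the values as deposited, quantile and median scaling, a floor at the 25th percentile, an offset of 50 in place of the floor, other filters, the mean of a gene's probe sets, other eBayes settings, a model without the Ikbke term and leaving out each genotype pair. By the rule for named genes, every array's value is given for the immune subunits, their counterparts with Psme4, further proteasome genes that were called or passed 2-fold, and the constitutive genes of highest and lowest mean (Psmb7 and Psmd10), with up to 4 members of each list and the 4 genes most like Psmb8. Psmb1, Psma5, the other 6 constitutive genes of lowest unadjusted p, the class I genes beyond 4 and the genes most like Psmb10 were added after their values were seen.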

Additional observations from a re-analysis of the deposited data

Results flagged for a closer look

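The response of 4 immune subunits to B-DNA differed between cells with and without Tbk1 by a test of the difference itself (limma interaction term). The change without Tbk1 minus that with Tbk1 was -3.64 (log2) for Psmb9, -3.34 for Psmb8, -2.60 for Psmb10 and -1.50 for Psme1. For Psmb9 this value was set by the floor, since the gene was above it only on the 2 B-DNA arrays with Tbk1, and its test supports nothing. Values were higher with B-DNA in 2 of 2 pairs with Tbk1 for each of the 4 genes.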

How the results depend on the processing

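Of the 4 immune subunits called for the Tbk1 dependence, 0 were called with no filter on low genes and 2 when only genes above the floor on all arrays were tested, a table without Psmb8 and Psmb9. Of the 4 called in the Tbk1+/+ pairs, 1 and 2 were called under these settings. Leaving out each genotype pair in turn left 1 pair in a Tbk1 group, and the fit of the Tbk1 dependence then had no Ikbke term. Across the 4 immune subunits the changes with Tbk1 then lay between 1.57 and 4.20, and the Tbk1 dependence between -4.20 and -1.42. Over all genes the Tbk1 count went from 199 to 0 without the filter and to 0 without any 1 pair, and was 84 with the floor at the 25th percentile and 97 with the mean of probe sets. The count of proteasome genes past 2-fold in Tbk1-/- Ikbke-/- cells, 0, became 2 with the values as deposited and 1 with the floor at the 25th percentile, and the cause was not tested. The changes with Tbk1 and the Tbk1 dependence of the immune subunits kept their sign under every setting run for them. Without Tbk1 the change of Psmb8 ran from -0.65 to 0.05 and that of Psmb9 from -0.20 to 0, while Psmb10 stayed between -0.08 and -0.05 and Psme1 between 0.10 and 0.13. Mock and B-DNA arrays were matched by genotype in every fit of the response. Brightness limits Psmb9 and Psmb8, which were under the floor on 6 and 2 of 8 arrays.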

Other observations

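The class I heavy chains, which receive the peptides made by the immunoproteasome, were low in cells without both kinases. H2-D1 signal was 423 and 507 on the Tbk1-/- Ikbke-/- mock and B-DNA arrays, against 1896 to 9323 on the other 6. H2-K1 was 787 and 670.3 there, against 3843 to 11372 elsewhere. The light chain B2m was 10113 and 10438 on these 2 arrays, within the 9216 to 20277 of the others. These genes were named after their values were seen, and no difference was tested for them here.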
